A study of Mus musculus with 2 samples.

Results

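The Slit ligands, their Robo receptors and the srGAP proteins that act inside the cell downstream of Robo were followed as 10 genes: the ligand genes Slit1, Slit2 and Slit3, the receptor genes Robo1, Robo2, Robo3 and Robo4, and the srGAP genes Srgap1, Srgap2 and Srgap3. They were taken by symbol, and all 10 were found among the 38926 genes listed in each file. The RNA came from pleuroperitoneal folds (PPFs), the paired embryonic folds that give rise to connective tissue of the diaphragm, of wild-type mouse embryos of strain "mixed, 129s/SvlmJ-C57/BL6J" at embryonic day 12.5. Replicates 1 and 2 are the series' single group of 2 libraries, each from 2 pooled PPF pairs dissected by hand after the heart and lungs were taken away, with no treatment and no other genotype, stage or tissue. The stated aim was to rank genes implicated in human congenital diaphragmatic hernia, a failure of the diaphragm to close, by their expression at this stage.

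Slits are large secreted proteins that bind Robo receptors on the surface of other cells and steer growing axons and migrating cells, mostly by repulsion. On Slit binding, the inner part of Robo recruits adaptor and actin-regulating proteins, among them the srGAPs. Mice that lack Slit3 develop a hernia in the central diaphragm, and mice without Robo1 and Robo2 also have diaphragm defects.

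Replicate 1 held 26370253 counts and replicate 2 held 23255957. Markers of the folds' own tissues were present: 18 of 18 fibroblast and mesenchyme genes, 12 of 12 mesothelial genes and 15 of 15 muscle genes found in the files reached 1 TPM in both libraries. TPM divides each count by the gene's length and then by the library's total of such values, so that levels can be compared between genes. Markers of other tissues were also detected, in 20 of 21 endothelial, 14 of 23 neuronal, 10 of 14 hepatoblast and 4 of 10 mesonephros and gonad genes, and in 3 of 10 genes of lung and gut epithelium. In RNA from a whole dissected fold, fewer cells of a type and less RNA per cell cannot be told apart. The labels call the pools biological replicates without naming litters, and the SD covers the spread between these 2 libraries.

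The microRNA miR-218 ties the ligand genes to the rest of the set, because its loci Mir218-1 and Mir218-2 lie in introns of Slit2 and Slit3, and Robo1 is a known target of it. The mature RefSeq sequences (GRCm38.p6, plus strand) are shown with the seed, bases 2 to 8, in capitals; miR-218-5p is the same from both loci (chr5:48223966-48223986 in Slit2 and chr11:35616840-35616860 in Slit3), whereas the 3p arms differ in seed.
miR-218-5p: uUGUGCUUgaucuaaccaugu
miR-218-1-3p: aAACAUGGuuccgucaagcacc
miR-218-2-3p: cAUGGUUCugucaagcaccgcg
The complement of the miR-218-5p seed, AAGCACA, was searched on the transcribed strand in the 3′ UTR of the longest protein-coding GENCODE M21 transcript of each gene. It occurred 8 times in 6 of the 10 genes (Slit2, Robo1, Robo2, Robo3, Srgap2 and Srgap3), against 13.7% of 19628 genes with a 3′ UTR. Of the 10 genes, 8 had a 3′ UTR of at least 1000 bases, and 5 of those 8 held a match. That compares with 24.2% of 9562 genes with a 3′ UTR of at least 1000 bases. Above that cutoff length was not matched, and the 3′ UTR of Srgap3 had 4817 bases. The matches of Slit2, the most abundant ligand, of the receptors Robo1 and Robo2 and of Srgap2 are given with the match in capitals.
Slit2, chr5:48304529-48304550, plus strand: gccaatactagcagAAGCACAt
Slit2, chr5:48306832-48306853, plus strand: gataattattagcaAAGCACAt
Robo1, chr16:73045334-73045355, plus strand: ttttttggttttaaAAGCACAa
Robo2, chr16:73895358-73895379, minus strand: ttttatttggtgatAAGCACAa
Robo2, chr16:73893032-73893053, minus strand: gtcacggcagacccAAGCACAg
Srgap2, chr1:131286521-131286542, minus strand: ttgggaaaaatccaAAGCACAa
In Robo1, Srgap2 and the Robo2 copy at the higher coordinates the match is followed by an A, as in the longest class of seed site. A match is a description of the sequence and not a measured target site. Neither microRNA locus had a count in either library, which allows up to 3.21 TPM in replicate 1 and 3.75 TPM in replicate 2 for each 110-base locus at a floor of 3 counts. Mature microRNAs carry no poly(A) tail and are not captured by this polyA-selected library kit, so these counts do not measure miR-218.

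In both libraries 9 of the 10 genes reached 1 TPM, the threshold for calling a gene expressed, and 8 reached 10 TPM, against 63.8% of protein-coding genes at 1 TPM (44.4% of all listed genes) and 46.6% of protein-coding genes at 10 TPM. The median level of all 10, with Robo3 included, was 27.0 TPM, against 7.95 TPM for the full set of 20411 protein-coding genes. Among the 13013 of these that reached 1 TPM in both libraries the median was 27.0 TPM, but that group leaves out genes below the threshold, as Robo3 is. Of the 9 genes that reached the threshold, the middle one by mean level was Srgap1, at 28.9 TPM, near that median. Summed levels were 67.1 ± 5.40 TPM for the ligands, 154 ± 16.2 TPM for the receptors and 112 ± 9.26 TPM for the srGAPs (SD, n = 2, as for all values given with ±).

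**Figure D1:**
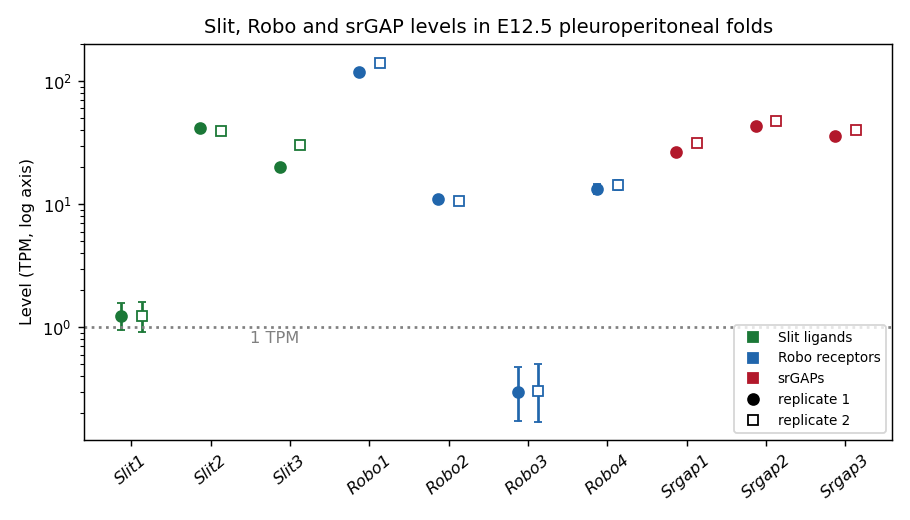
Level of each gene in TPM on a log axis, with filled circles for replicate 1, open squares for replicate 2 and bars for the exact Poisson 95% interval of the count; the dotted line marks 1 TPM. Robo1 stands highest in both libraries, and Robo3 is the 1 gene below 1 TPM.

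Among the ligands, Slit2 and Slit3 made up nearly all of the level and Slit1 was close to the 1 TPM threshold. Slit2 (chromosome 5, 47983138 to 48307733, plus strand, GRCm38), a midline repellent in the nervous system that also acts in the developing kidney, had 41.9 TPM in replicate 1 and 39.6 TPM in replicate 2. Slit3 (chromosome 11, 35121224 to 35708507, plus strand), the ligand gene linked to diaphragm closure in mice, had 20.1 and 30.1 TPM. Slit2 was the higher of the pair in both libraries, by a log2 ratio of 1.06 in replicate 1 and 0.40 in replicate 2, and it held 66.3% and 55.8% of the ligand TPM. Slit1 (chromosome 19, 41600257 to 41743665, minus strand), which is best known from the nervous system, had 62 and 53 counts, or 1.23 TPM in each library with exact Poisson intervals of 0.946 to 1.58 and 0.922 to 1.61 TPM. Slit2 stood above Slit1 by a mean log2 ratio of 4.94 ± 0.056 (TPM plus a pseudocount of 0.1). The intervals of Slit1 reach below 1 TPM, so its place above the threshold is within counting error.

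The receptors were dominated by 1 gene. Robo1 (chromosome 16, 72308306 to 73046095, plus strand), a broadly expressed Slit receptor, had 118 TPM in replicate 1 and 140.0 TPM in replicate 2, higher than 94.0% of protein-coding genes by mean level. It held 82.7% and 84.7% of the receptor TPM. Robo2 (chromosome 16, 73891839 to 74411825, minus strand), which works with Robo1 in axon guidance and positions the ureteric bud in the kidney, had 11.0 and 10.6 TPM, a mean log2 ratio of Robo1 over Robo2 of 3.56 ± 0.22. The pair are neighbours on chromosome 16, 846 kb apart and on opposite strands, with no other protein-coding gene annotated between them.

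The other receptor genes also lie side by side, 0.554 kb apart on opposite strands of chromosome 9, and their levels were far apart. Robo4 (37401897 to 37415115, plus strand), a receptor of endothelial cells that stabilises blood vessels, had 13.2 and 14.3 TPM from 461 and 428 counts. Robo3 (37415669 to 37433246, minus strand), which commissural axons of the hindbrain and spinal cord need to cross the midline and which in mammals does not bind Slits with high affinity, had 17 and 15 counts. These gave 0.296 and 0.305 TPM, with exact Poisson intervals of 0.173 to 0.474 and 0.171 to 0.503 TPM. Both intervals end below 1 TPM, and no exon base of Robo3 is shared with Robo4 in GENCODE M21.

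Robo4 was read beside 21 endothelial markers measured in the same libraries. The highest were Cdh5, the VE-cadherin gene (64.9 and 82.1 TPM), Cd34, a surface glycoprotein of endothelial and blood progenitor cells (47.0 and 59.0 TPM), and Kdr, a VEGF receptor gene (51.4 and 48.1 TPM); the lowest was Etv2 (1 count in replicate 1 and 0 in replicate 2). Robo4 was 0.204 times Cdh5 in replicate 1 and 0.175 times in replicate 2, and 6 and 5 of the 21 markers were below it. Neuronal markers, read beside Robo3 and Slit1, had a median of 2.96 TPM. The highest 2 were Lhx2 (33.9 ± 3.31 TPM), a regulator that is also expressed outside neurons and the axonal growth gene Gap43 (28.8 ± 6.21 TPM), and Mnx1 and Neurog1 were at 0 counts in both libraries.

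All 3 srGAP genes were expressed, at levels that differed from each other less than those of the ligands or receptors did. Srgap2 (chromosome 1, 131285251 to 131527352, minus strand), which bends membranes and drives protrusions in migrating neurons, had 43.3 TPM in replicate 1 and 47.2 TPM in replicate 2. Srgap3 (chromosome 6, 112717971 to 112947266, minus strand), a Rac-directed member also called WRP, had 36.0 and 40.4 TPM. Srgap1 (chromosome 10, 121780991 to 122047315, minus strand), the member first tied to Cdc42 downstream of Slit and Robo, had 26.5 and 31.3 TPM. The order Srgap2, Srgap3, Srgap1 held in both libraries, with mean log2 ratios of Srgap2 of 0.24 ± 0.031 over Srgap3 and 0.65 ± 0.080 over Srgap1. Across the whole set the order by mean TPM was Robo1, Srgap2, Slit2, Srgap3, Srgap1, Slit3, Robo4, Robo2, Slit1 and Robo3. The ranges of the libraries overlapped for 2 pairs of neighbours in that order, Slit2 with Srgap3 and Srgap1 with Slit3, and not for the other 7.

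That order depended on which gene length divides the count. The deposited length of Slit2 was 15079 bases, while its longest annotated transcript has 9960 bases in 36 exons; GENCODE M21 lists 23 Slit2 transcripts, of which 10 are retained introns, and its merged exons cover 25433 bases. For Robo2 the deposited length was 16516 bases against 8591 in the longest transcript, whereas for Robo1 both were 7563 bases. With the longest transcript as the length of every gene, Robo2 stood at 19.2 and 18.4 TPM, 1.74 times its deposited mean, and Slit2 at 57.4 and 54.2 TPM, 1.37 times. Robo4 fell to 9.93 and 10.8 TPM, 0.751 times. On this scale Slit2 ranked above Srgap2 and Robo2 above Robo4, in both libraries, and Robo1 again ranked highest.

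**Figure D2:**
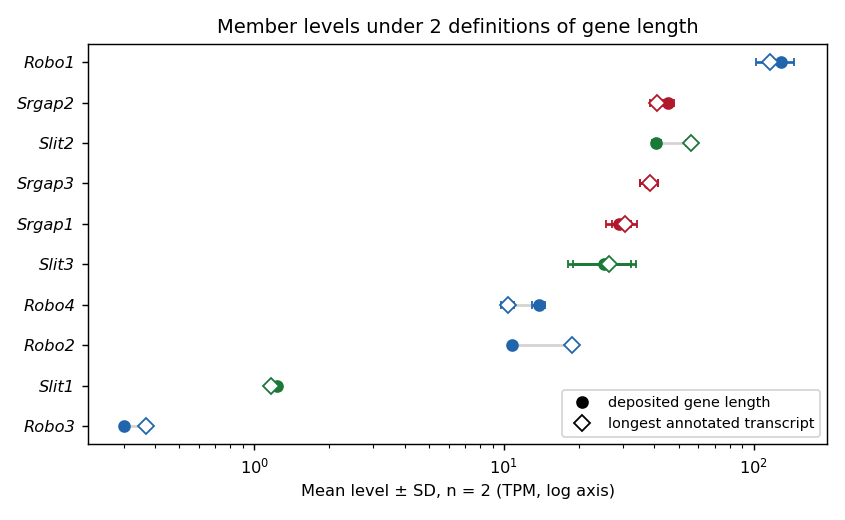
Mean level ± SD (n = 2) in TPM on a log axis for each gene, with filled circles for the deposited gene length and open diamonds for the longest annotated transcript. Slit2 and Robo2 lie to the right with the longest transcript and Robo4 to the left, while Robo1 stays highest under both.

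Between the libraries, Slit3 had the ratio farthest from 0 of the 10 genes. Its counts were 1035 in replicate 1 and 1326 in replicate 2, which is 1.46-fold after scaling. On the log2 scale this was 0.54, with a 95% interval from 0.42 to 0.66 (adjusted p = 1.19e-17, exact binomial test). Of the 8685 genes whose counts summed to 1000 or more, 0.553% had a ratio at least as far from 0. The test compares these 2 libraries and counts reads as the only noise; it is not a test of conditions or animals. In it, 5 of the 10 genes were called different at an adjusted p under 0.05, against 17.2% of the 19433 genes tested and 29.8% of those with 1000 or more counts, the depth of 7 of the 10. None of the 5 reached 1.5-fold, whereas 2.21% of tested genes were both called and at least 1.5-fold apart and 1.15% both called and at least 2-fold apart.

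Robo1 was higher in replicate 2, with 7557 and 7699 counts and a log2 ratio of 0.21 (0.17 to 0.26, exact binomial adjusted p = 1.79e-17). Srgap1 was also higher, at 0.20 (exact binomial adjusted p = 0.000159), and so was Srgap3, at 0.13 (exact binomial adjusted p = 0.00605). Slit2 was lower, at -0.12 (exact binomial adjusted p = 0.00059), from 5361 and 4339 counts. Higher calls made up 8.7% and lower calls 8.52% of all tested genes. Slit1, Robo2, Robo3, Robo4 and Srgap2 were not called. Robo3 had an interval from -1.10 to 1.09 and Slit1 one from -0.60 to 0.51, so differences within those bounds were not detectable at this depth.

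Ratios in these libraries moved with gene length and GC content, and the small ones changed when that trend was removed. After a correction fitted over 14639 genes, Slit3 remained higher in replicate 2 at 0.51 (0.39 to 0.63, exact binomial adjusted p = 2.08e-15). Slit2 lay further below 0, at -0.29 (exact binomial adjusted p = 3.37e-20), and Robo2 became a call, at -0.25 (exact binomial adjusted p = 0.000105). Robo1 moved to 0.10 and was still called (exact binomial adjusted p = 0.000362). Srgap1, at 0.085 (exact binomial adjusted p = 0.239), and Srgap3, at -0.0012 (exact binomial adjusted p = 1), were no longer called. Under the correction 4 of the 10 genes were called, against 13.5% of tested genes.

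**Figure D3:**
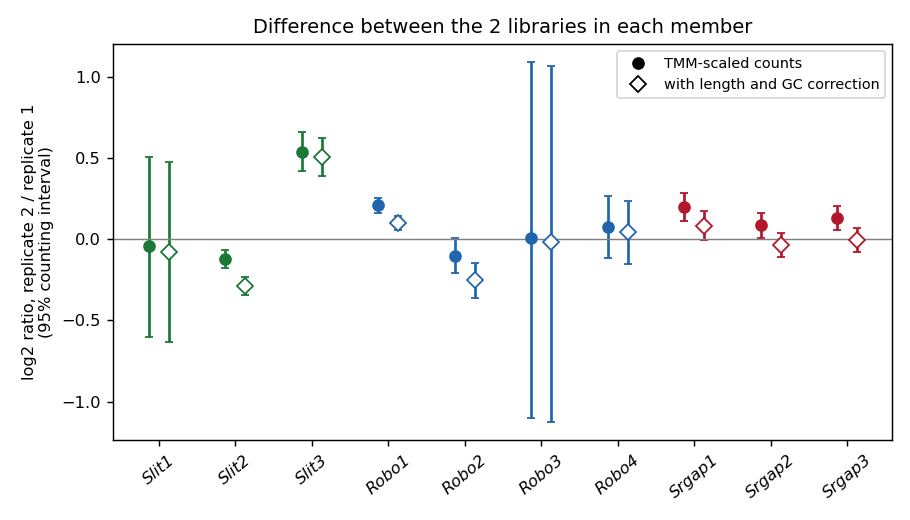
Log2 ratio of replicate 2 to replicate 1 for each gene, with 95% counting intervals; filled circles are TMM-scaled counts and open diamonds the same after the length and GC correction. Slit3 lies near 0.5 in both, while the 3 srGAP genes move towards 0 or below it with the correction.

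Marker lists also differed between the libraries, and their part in the difference of Slit3 and Slit2 was not tested. The summed level of the 23 neuronal markers was 120.3 TPM in replicate 1 and 174 TPM in replicate 2, with 12 of 20 tested genes higher and 1 lower; that of the 14 hepatoblast markers was 803 and 1008 TPM (10 of 13 higher, 1 lower), of which Dlk1, also a gene of mesenchyme, held 657 and 649 TPM, Afp 58.5 and 149.8 TPM and Alb 35.9 and 104 TPM. Among them Foxa3 was lowest, at 2 and 3 counts. The 21 endothelial markers summed to 517 and 606 TPM (8 of 20 higher, 1 lower), and the median log2 ratio of those tested was 0.17. Robo4 itself was not called, at 0.077, and its interval (-0.12 to 0.27) includes that median. Mesonephros and gonad markers went the other way, with 39.8 and 18.1 TPM (7 of 9 lower, 0 higher). The 3 at the highest level were Emx2 (20.3 and 8.20 TPM) and Amhr2 (10.3 and 5.02 TPM), both called lower, and Gata3 (2.49 and 2.42 TPM), which was not called, and Nr5a1 was lowest at 0 and 1 count. Sums for fibroblast and mesenchyme were 9028 and 9183 TPM (highest Col1a1) and for muscle 4050 and 4190 TPM (highest Actc1). Those for mesothelium were 934 and 963 TPM (highest Aldh1a2) and for Schwann precursors 276 and 320 TPM (highest Ngfr). Each of these sums differed by 1.16-fold or less, but genes within them were called. Of 18 fibroblast and mesenchyme genes 4 were higher and 6 lower, and of 15 muscle genes 4 higher and 1 lower. Of 12 mesothelial genes 2 were higher and 1 lower, and of 10 Schwann precursor genes 3 higher and 0 lower. Over all tested genes 8.7% were called higher and 8.52% lower, and 29.8% were called among those with 1000 or more counts. Cardiac markers summed to 513 and 571 TPM (3 of 7 higher, 0 lower), of which Tnnt2, the highest, held 300 and 322 TPM. Of these 10 genes 7 reached 1 TPM in both libraries, while Nkx2-5 had 1 and 3 counts and Nppb 0. Erythroid markers (highest Hbb-y) summed to 5605 and 5204 TPM (3 of 10 higher, 2 lower). Lung and gut epithelium summed to 42.9 and 46.6 TPM (4 tested, 0 higher, 0 lower), of which Etv5, the highest, held 36.9 and 40.5 TPM. Cdx2, Nkx2-1 and Shh were at 0 counts. Each of these 3 sums came largely from 1 gene and does not measure the share of a tissue.

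Other genes of the pathway were described by list. Of 52 such genes, 51 were expressed in both libraries, with a median of 56.7 TPM. The exception was Dcc, a netrin receptor that Robo1 can bind and silence, at 0.979 TPM in replicate 1 and 1.38 TPM in replicate 2. Among the ligand coreceptors and other partners (14 of 15 expressed), Gpc1, a heparan sulfate glypican that binds Slit, stood at 184 ± 2.22 TPM, Dag1, whose product dystroglycan binds Slits in basement membranes, at 158 ± 16.1 TPM, and the syndecan genes Sdc3 and Sdc1 at 127 ± 0.372 and 97.6 ± 1.63 TPM. Nell1 was the lowest but Dcc, at 8.24 ± 0.869 TPM. The 8 genes of heparan sulfate synthesis, the sugar that Slit and Robo need to bind tightly, were all expressed, from Ndst1 (119.6 ± 10.6 TPM), Hs6st1 (75.8 ± 0.512 TPM), Hs2st1 (72.2 ± 0.536 TPM) and Glce (54.4 ± 4.34 TPM) down to Ext1 (41.03 ± 1.61 TPM) and Hs6st2 (32.2 ± 1.22 TPM).

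Inside the cell, all 19 Robo effectors were expressed. The actin regulators Vasp (198 ± 4.62 TPM), Cap1 (188 ± 0.0398 TPM), Evl (163 ± 2.58 TPM) and Enah (141 ± 11.2 TPM) led, and Arhgap4, a relative of the srGAPs (12.1 ± 0.442 TPM), and the kinase gene Pak3 (9.42 ± 0.0323 TPM) were lowest. Of the 6 genes of Robo turnover and processing, the ubiquitin ligase gene Nedd4 stood at 877 ± 58.4 TPM, its adaptor gene Ndfip1 at 227 ± 1.59 TPM, the protease gene Adam10 at 162 ± 6.84 TPM and the deubiquitinase gene Usp33, whose product binds Robo1, at 40.2 ± 0.826 TPM, with Nedd4l (16.3 ± 0.832 TPM) and Ndfip2 (10.96 ± 0.0468 TPM) lowest. Of the 52 genes, 13 were called higher in replicate 2 and 3 lower (Cxcl12, Sdc2 and Nell2). That is 30.8% of them, near the 29.8% called among all genes with 1000 or more counts, a depth that 47 of the 52 had. Their median log2 ratio was 0.018, against -0.014 over all tested genes. None differed by 2-fold.

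**Figure D4:**
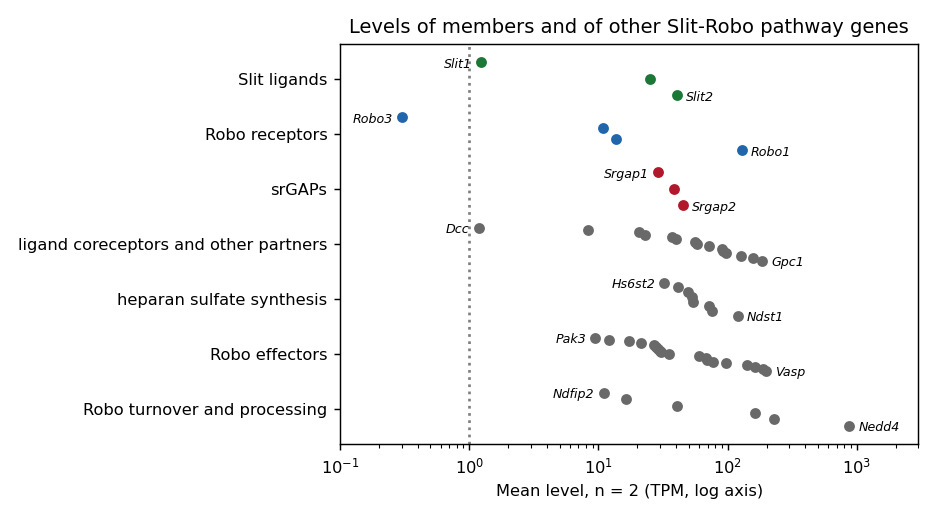
Mean level (n = 2) in TPM on a log axis of the 10 Slit, Robo and srGAP genes (coloured) and of the other pathway genes described by list (grey), with the highest and lowest of each named; the dotted line marks 1 TPM. Robo3 is the 1 gene whose mean lies below 1 TPM, and Nedd4 has the highest mean.

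RefSeq promoter windows (GRCm38.p6), the 250 bases before a start site, were matched for 9 of the 10 genes, with 11 windows in all. Those of the most abundant ligand, the most abundant receptor and the endothelial receptor are shown up to the nearest GENCODE M21 exon of the gene, with motif matches in capitals.
Slit2, chr5:47982905-47983137, plus strand: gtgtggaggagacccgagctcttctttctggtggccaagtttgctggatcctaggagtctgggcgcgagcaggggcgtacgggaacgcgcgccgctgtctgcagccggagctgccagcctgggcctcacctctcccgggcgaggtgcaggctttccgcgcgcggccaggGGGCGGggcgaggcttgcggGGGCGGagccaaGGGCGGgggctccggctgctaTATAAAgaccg
Robo1, chr16:72662899-72663148, plus strand: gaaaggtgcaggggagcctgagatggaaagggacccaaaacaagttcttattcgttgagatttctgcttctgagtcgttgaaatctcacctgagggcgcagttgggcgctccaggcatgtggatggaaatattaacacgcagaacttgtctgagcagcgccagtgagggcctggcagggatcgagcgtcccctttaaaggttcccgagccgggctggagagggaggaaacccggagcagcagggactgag
Robo4, chr9:37401722-37401896, plus strand: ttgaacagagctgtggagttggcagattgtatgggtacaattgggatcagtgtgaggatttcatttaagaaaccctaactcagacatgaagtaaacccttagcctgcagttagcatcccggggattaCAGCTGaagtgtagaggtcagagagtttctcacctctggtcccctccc
Each of 5 short motifs was searched on both strands, with its share over all 32851 promoter windows as background. The TATA box was read as TATAAA (12.4% of windows), the GC box as GGGCGG (32.7%), the core of ETS factor sites as CCGGAA (12.0%), a GATA factor site as AGATAA (9.99%) and the E-box of myogenic factors as CAGCTG (13.0%). Counts here are per gene, while the background shares are per window. The TATA box was found in 2 of the 9 genes, Slit2 (28 bases before the start site) and Srgap3 (72 bases before it). The GC box was found in 6, with 6 copies in Slit3 and 3 each in Slit2, Robo3 and Srgap1. In the Slit3 window 232 of the 250 bases, with all its copies, lie in GENCODE M21 exons of the gene. The E-box occurred in Robo4 and in 1 of the 3 Robo2 windows, the one with its start site at 74411825. The GATA motif occurred in another Robo2 window, with its start site at 75092770. That site and the remaining Robo2 site, at 75447293, lie outside the GENCODE M21 Robo2 gene. No window held the ETS core, and the Robo1 window held none of the 5. The Robo1 start site, at 72663149, lies inside the GENCODE M21 Robo1 gene, which begins at 72308306. The CpG ratio, observed over expected, was 0.848 for Slit2, 0.592 for Robo1 and 0.131 for Robo4, against a median of 0.373 over all windows. These are descriptions of the letters in each window.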

How the data were processed

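RNA from 2 wild-type PPF libraries was sequenced with a stranded polyA kit, per the labels' protocols. The submitters' processing notes list STAR 2.4.0a, featureCounts, SAMtools 1.3 and the build mm9; they do not give a strand setting. The deposited counts are raw reads per gene, and the authors' deposited TPM values equal count over length scaled to a fixed sum. Of 35656 symbols also in GENCODE M21, 77.5% had an interval identical to that gene or a transcript of it, so positions are GRCm38.

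Libraries were compared per gene by the log2 ratio of counts plus 0.5, scaled by TMM (edgeR 4.0.16), with an exact two-sided binomial test and Benjamini-Hochberg adjustment over 19433 genes with at least 10 counts in all. In simulated counts for this comparison (19450 genes tested at 1.5-fold, 19484 at 2-fold), it called 83.0% of 200 genes changed 1.5-fold and 99.5% of 200 changed 2-fold. The simulated counts held counting noise only, and the changed genes were drawn from genes well above the minimum of 10 counts. These shares therefore do not cover genes with few counts, such as Robo3, or spread between libraries beyond counting noise. The correction for length and GC was a quadratic fit over genes with at least 50 counts; its test was added after seeing the data. Other scaling came from DESeq2 1.42.0. Intervals and floors (3 counts) cover counting error only, since PCR reads are not independent molecules. The genes and lists were chosen with earlier results of these data known. Named were the 10 genes, the 4 highest and 2 lowest of each pathway list and any with a 2-fold ratio, the 3 highest and the lowest of the endothelial, neuronal, hepatoblast and mesonephros lists, the highest of other lists, and neighbouring or overlapping genes; markers at 0 counts, Cxcl12, Sdc2 and Nell2 were named after their values were seen. Mymk was not analysed here. Some genes that fall under these rules are not reported here by name but stay in the counts and sums.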

Additional observations from a re-analysis of the deposited data

How the results depend on the processing

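The number of genes expressed (9 of 10) and of other pathway genes expressed (51 of 52) stayed within 1.5 times under each threshold, length, rescaling and library left out that was run. TPM rescaled over protein-coding genes raised the level of every gene by 1.24 times, to 1.52 TPM for Slit1, 50.4 for Slit2, 159 for Robo1, 13.3 for Robo2, 0.372 for Robo3, 17.0 for Robo4, 35.7 for Srgap1, 55.9 for Srgap2 and 47.2 for Srgap3, and stayed within 1 SD for Slit3. Without features under 200 bases the levels were 1.38 TPM for Slit1, 45.5 for Slit2, 12.1 for Robo2, 0.336 for Robo3, 15.4 for Robo4, 50.5 for Srgap2 and 42.6 for Srgap3. With the longest transcript they were 1.16 TPM for Slit1, 55.8 for Slit2, 18.8 for Robo2, 0.368 for Robo3, 10.3 for Robo4 and 41.0 for Srgap2. By library-scaled counts, which ignore length, 6 of the 10 ranks moved: Slit2 rose to 2, Srgap3 to 3 and Robo2 to 6, and Srgap2 fell to 4, Slit3 to 7 and Robo4 to 8. Without replicate 1, Slit2 ranked below Srgap3.

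Log2 ratios within a class kept their sign with the longest transcript, at 5.47 for Slit2 over Slit1, 2.62 for Robo1 over Robo2, 3.48 over Robo4 and 7.96 over Robo3, 0.098 for Srgap2 over Srgap3 and 0.42 over Srgap1. From raw counts without length they were 2.04 for Slit2 over Slit3, 6.39 over Slit1, 2.45 for Robo1 over Robo2, 4.10 over Robo4, 8.90 over Robo3 and 0.47 for Srgap2 over Srgap1, and Srgap2 over Srgap3 reversed to -0.048. The low genes followed the pseudocount: Slit2 over Slit1 was 5.05 with none and 4.22 with 1 TPM, and Robo1 over Robo3 8.74 and 6.64.

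The length and GC correction made Robo2 a call at -0.25, took Srgap1 below the threshold at 0.085, and reversed Robo3 (-0.015), Srgap2 (-0.036) and Srgap3 (-0.0012), all 3 with exact binomial adjusted p of 0.664 or more. Asking for 1.5-fold or 2-fold beside the adjusted p left 0 of the 5 calls. Total-count scaling, DESeq2 size factors and other count minimums changed no call. The pseudocount enters the ratio and not the test, so it could not change a call. No paired analysis was possible because the series has a single group. Depth limits Robo3 and Slit1 most.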

Other observations

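Of the annotated features that overlap the 10 genes, 2 share exon bases with them in GENCODE M21: Gm44081, on the opposite strand, shares 150 with Srgap3, and Gm48804, on the same strand, shares 131 with Srgap1. The nearest protein-coding neighbour of Srgap2 is Fam72a, which lies 0.551 kb away on the opposite strand and stood at 5.59 and 6.78 TPM. Beside Slit1, Arhgap19 stood at 54.9 and 56.8 TPM and Gm340 at 6.29 and 8.89 TPM. Beside Slit3, Spdl1 stood at 24.5 and 26.1 TPM and Pank3 at 44.4 and 51.9 TPM. On the far sides of the Robo pairs, Gbe1 by Robo1 stood at 6.98 and 8.15 TPM, Msantd2 by Robo3 at 57.4 and 57.2 TPM, Hepacam by Robo4 at 0.142 and 0.0413 TPM, and Lipi by Robo2 had no counts.

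The deposited interval of some genes is shorter than the annotated gene. For Slit2 and Robo3 it is also shorter than the deposited length. Slit2 spans 325 kb in GENCODE M21 but 7.18 kb in the files, and Robo3 17.6 kb against 3.19 kb. For Robo1 the deposited length of 7563 bases equals that of its longest transcript, although its merged GENCODE exons cover 16511 bases.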
